A study of Homo sapiens with 19 samples.

Results

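MYC, its dimerisation partner MAX, the MAX-binding repressor MXD1 and 35 further genes of ribosome production and MYC-driven metabolism were followed across sublines of the human breast cancer cell line MDA-MB-231. A gene entered when the array carried a probe set annotated to it alone, which held for 28 of the 38 listed genes. Of the other 10, NOP56, DKC1, BOP1 and PPAN had only probe sets shared with another gene, and NOP58, UTP4, DDX18, GNL3, NOB1 and EBNA1BP2 had none named. The 28 genes had 41 probe sets of their own. Of these, 40 passed the filter on low signal, which left every one of the 28 genes among the 9546 genes tested.

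The study profiled 19 cell lines on Affymetrix arrays, 1 array per line, with total RNA taken from sub-confluent cultures. The groups were 2 hyper-ploid sublines set against 2 modal-ploid sublines (1 of each from lines 1833 and 4175), 4 strongly bone-metastatic lines (1833, 2274, 2268 and 2269) set against 3 weakly bone-metastatic lines (2293, 2295 and 2296), 4 strongly lung-metastatic lines (4142, 4173, 4175 and 4180) set against 3 weakly lung-metastatic lines (SCP21, SCP6 and SCP26), and the parental MDA-MB-231 line. The strong-line arrays of 1833 and 4175 are the original sublines after a short culture, so 1833 and 4175 each stand in both a metastasis group and a ploidy pair. One weak bone line is named 2296 in its title and 2297 in the series' design text, and the title's name is used here. All lines share the MDA-MB-231 origin and were grown in serum-containing medium with the selective drug each needed. Each line was measured once, so the p-values below for strong against weak lines measure the spread between lines. Those for the ploidy sublines rest mostly on moderation over all genes, with 1 residual degree of freedom against 11.4 from moderation.

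MYC is a transcription factor that binds DNA as a dimer with MAX, most often at the E-box CACGTG. MXD1 competes for MAX and represses the same kind of site. Among the best known MYC targets are the genes that make ribosomes: RNA polymerase I transcribes ribosomal RNA in the nucleolus, small nucleolar ribonucleoproteins modify it, and separate sets of assembly factors process and build the small and the large subunit.

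Because MYC and MXD1 act at this motif, 5 promoters that hold it near the transcription start are shown. WDR43 is the member called between strong and weak bone lines that holds it, and FBL, PES1, RRP9 and UTP20 are the first in list order among the other measured members with the motif in the stretch printed. DDX21, GNL2, MRTO4 and ODC1 hold it there too and are not printed. DDX10 and MXD1, which were called in bone lines and hold none, were added after their values were seen. The sequences are RefSeq's, build GRCh38.p14, written 5′ to 3′ on the gene's strand from 120 bases before the start to 30 bases after it, with CACGTG in capitals. WDR43 lies at chr2:28894547-28894696 on the plus strand, FBL at chr19:39846350-39846499 on the minus strand, PES1 at chr22:30591881-30592030 on the minus strand and RRP9 at chr3:51941875-51942024 on the minus strand. UTP20 lies at chr12:101279985-101280134, DDX10 at chr11:108664949-108665098 and MXD1 at chr2:69914989-69915138, each on the plus strand.
WDR43: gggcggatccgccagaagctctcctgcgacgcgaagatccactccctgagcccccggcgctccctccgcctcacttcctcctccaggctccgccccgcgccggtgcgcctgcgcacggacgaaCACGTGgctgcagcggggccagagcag
FBL: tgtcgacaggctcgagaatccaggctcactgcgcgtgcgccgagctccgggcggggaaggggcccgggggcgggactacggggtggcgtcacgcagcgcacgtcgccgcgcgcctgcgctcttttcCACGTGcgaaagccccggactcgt
PES1: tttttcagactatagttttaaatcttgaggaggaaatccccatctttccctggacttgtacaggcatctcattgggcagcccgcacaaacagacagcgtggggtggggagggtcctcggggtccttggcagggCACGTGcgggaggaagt
RRP9: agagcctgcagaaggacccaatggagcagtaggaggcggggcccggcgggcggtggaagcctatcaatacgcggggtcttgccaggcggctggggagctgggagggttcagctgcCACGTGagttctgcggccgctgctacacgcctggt
UTP20: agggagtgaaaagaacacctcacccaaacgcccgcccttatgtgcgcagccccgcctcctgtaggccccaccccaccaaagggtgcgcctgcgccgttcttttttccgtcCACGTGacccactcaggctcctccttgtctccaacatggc
DDX10: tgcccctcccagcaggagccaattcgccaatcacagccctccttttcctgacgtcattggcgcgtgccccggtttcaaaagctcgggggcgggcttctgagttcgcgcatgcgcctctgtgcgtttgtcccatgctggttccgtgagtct
MXD1: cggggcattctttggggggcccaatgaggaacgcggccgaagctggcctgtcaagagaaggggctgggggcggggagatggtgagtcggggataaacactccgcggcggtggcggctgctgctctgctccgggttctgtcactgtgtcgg
The motif begins 4 bases after the start in WDR43, 7 after it in FBL and 14 after it in PES1. It begins 5 bases before the start in RRP9 and 10 before it in UTP20. The start used for PES1 lies inside the annotated gene, which spans chr22:30576625-30607013, so it is not the gene's outermost start.

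CACGTG, which reads the same on both strands, was searched in windows of 300 bases (250 before and 50 after the start). It occurred in 16 of the 38 promoter entries of the listed genes (42.1%), against 1851 of 22199 protein-coding promoter entries (8.34%). Counted by gene, 15 of the 30 listed genes with an entry held it. MYC, NOP58, NOLC1, BOP1, RRS1, RRP1B, RRP12 and DDX18 had no entry. A match describes the letters in the window and does not show binding. Of the 5 members called between strong and weak bone lines, 4 had an entry and 1, WDR43, held the motif.

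The deposited values are ratios, divided separately within a set of 10 arrays (parental, bone and 1833 ploidy lines) and a set of 9 arrays (lung and 4175 ploidy lines). Signals in steps of 0.1 were recovered from these ratios for 22282 of 22283 probe sets, scaled to a common array median and analysed as log2(signal + 16). Values are given below as scaled signals, which compare arrays for the same gene and not different genes. The 4 ploidy arrays stood apart before scaling, with trimmed mean signals of 323 to 361 against 499 to 500 on the other 15. All 12 markers of the MDA-MB-231 cell state, among them VIM and CD44, exceeded their array's 40th percentile on all 19 arrays, while 2 of 10 leukocyte markers on the array (PTPRC and LYZ) and 3 of 10 endothelial and stromal ones (CDH5, VWF and LUM) did not exceed it on any. The others did on some arrays, among them CD2 on 16, PECAM1 on 17, and COL1A1 and DCN on all 19. A list of 7 markers low or absent in MDA-MB-231 was not low throughout. ERBB2 and GATA3 exceeded the 40th percentile on all 19 arrays and ESR1 on 16. KRT5, FOXA1 and CDH1 did on 4, 3 and 1, and PGR on none.

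In strong bone lines, 5 members rose against weak bone lines and none fell. MXD1, DDX10, WDR43, WDR3 and MYC passed the adjusted threshold of 0.05 in the limma fit. That is 5 of 28 members, in a fit that called 11.7% of all genes, 6.85% higher and 4.83% lower. The members were chosen with earlier results of these data known, so the comparison with all genes is not independent. The median log2 difference was 0.38 over the 28 members and 0.01 over all genes, and 25 of 28 members lay above 0, against 50.9% of all genes. In 14 members every strong line lay above every weak line, and in 1, RRP1B, every strong line lay below, against 14.7% and 12.9% of all genes. Of the 6 endothelial and stromal markers tested, PECAM1 fell by 1.59, and the summed signal of the 10 on the array was 710 to 1064 in strong lines against 975 to 1399 in weak lines. Its part in the result was not tested. None of the 8 leukocyte markers tested was called. Of the 12 cell-state markers, FN1 (-1.74) and CAV1 (-0.71) fell and EGFR (0.78) rose. Of the 5 tested markers listed as low or absent in MDA-MB-231, GATA3 rose by 1.13.

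MYC itself had signals of 3039.9 in 1833, 2973 in 2274, 2706 in 2268 and 2516 in 2269, against 1668 in 2293, 1899.7 in 2295 and 1746 in 2296. The lowest strong line was above the highest weak line, and the parental line, at 2125, lay between the groups. MYC rose by a log2 difference of 0.66 ± 0.20 (SE, adjusted p = 0.0454). The ratios as deposited for MYC were 1.49 in 1833, 1.45 in 2274, 1.32 in 2268 and 1.23 in 2269, against 0.816 in 2293, 0.929 in 2295 and 0.854 in 2296. The call was near the threshold: leaving out 1 of the 7 bone lines kept it only without 2269 (adjusted p = 0.0436), and the other 6 fits gave adjusted p-values above 0.05, up to 0.141.

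MAX did not follow MYC, with signals of 1834 in 1833, 2067 in 2274, 2059 in 2268 and 1447 in 2269, against 1996 in 2293, 1888 in 2295 and 1819 in 2296. The groups overlapped, and the log2 difference was -0.05 ± 0.18 (SE, adjusted p = 0.899). MXD1, by contrast, had signals of 122 in 1833, 115 in 2274, 75 in 2268 and 40.7 in 2269, against 12.6 in 2293, 6.55 in 2295 and 8.57 in 2296. Its log2 difference was 1.97 ± 0.26 (SE, adjusted p = 0.000416), and it was called in all 7 fits that left out 1 bone line. MXD1 was dim throughout and exceeded the 40th percentile of signals on 4 of 19 arrays. These were strong bone lines 1833 and 2274 and both 1833 ploidy sublines, while strong lines 2268 and 2269 lay below it. The filter asked for 2 such arrays, so MXD1 entered only through lines where it was high, and its call is not independent of that filter. Since no weak bone array measured MXD1 above the 40th percentile, the fold in strong over weak lines is bounded as at least 1.02-fold. The log2 difference depended on the offset and ranged from 1.02 to 3.18 over the other settings tried.

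**Figure D1:**
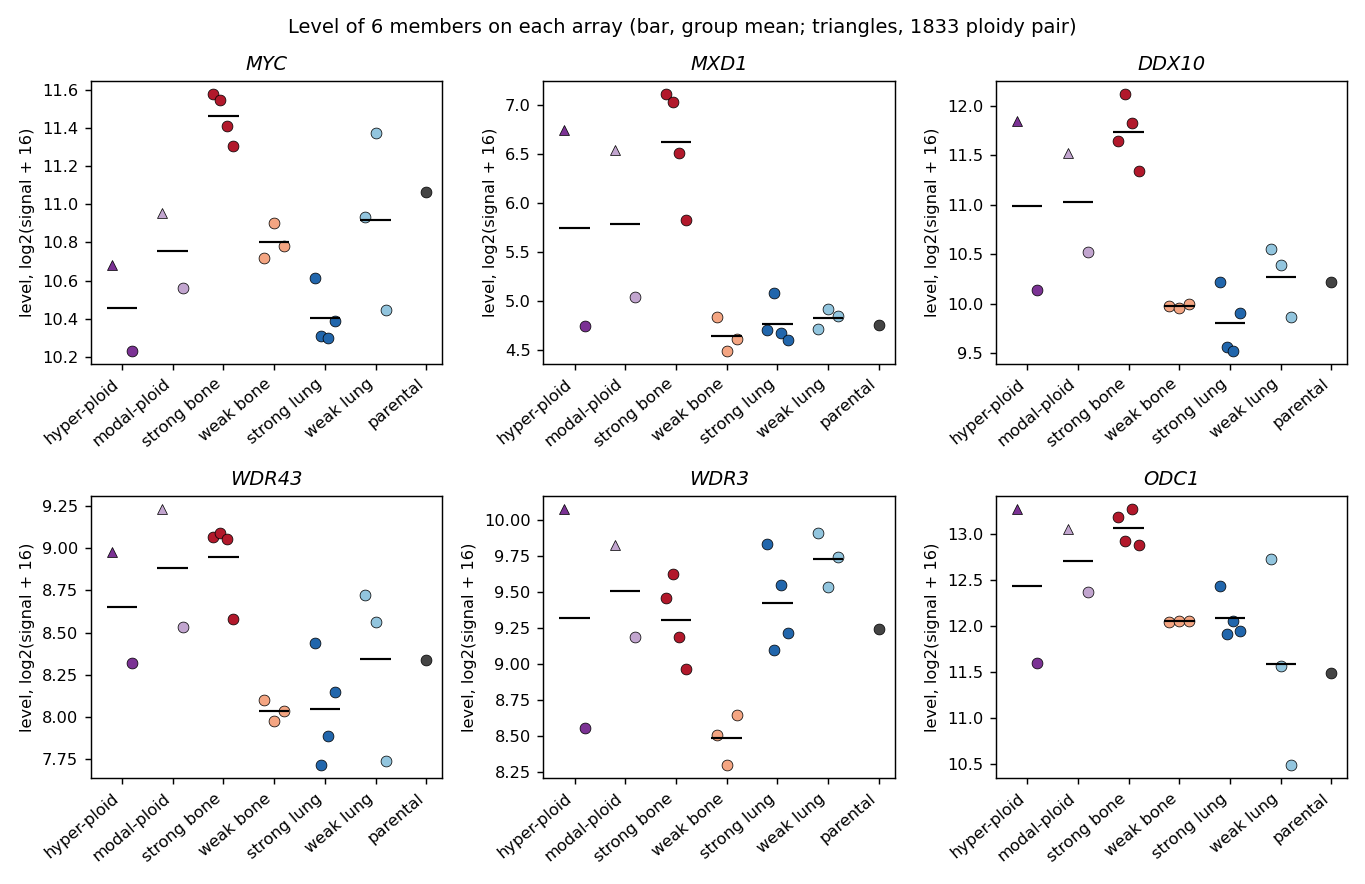
Level of 6 members on each of the 19 arrays, as log2(signal + 16), with each axis cut to the gene's own range. Points are lines, bars are group means, and triangles mark the 1833 ploidy pair. The 4 strong bone lines lie above the 3 weak bone lines in all 6 genes. For every gene shown but MYC, the 1833 ploidy sublines lie within or above the range of the strong bone lines. For MYC they lie below all 4 strong bone lines.

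Small subunit factors held the remaining 3 calls, 3 of the 7 measured, in a fit that called 6.85% of all genes higher. With so few genes in each role, the calls cannot separate the roles. DDX10, a DEAD-box RNA helicase of the nucleolus, had signals of 3174 in 1833, 4433 in 2274, 3601 in 2268 and 2578 in 2269, against 993 in 2293, 975 in 2295 and 1004 in 2296. The weak lines lay close together, and the lowest strong line was above all of them. DDX10 rose by a log2 difference of 1.75 ± 0.23 (SE, adjusted p = 0.000383), a call kept in all 7 fits that left out 1 line.

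WDR43, a subunit of the complex that joins ribosomal DNA transcription to early processing, had signals of 519.8 in 1833, 529 in 2274, 516 in 2268 and 367 in 2269, against 259 in 2293, 236 in 2295 and 246 in 2296. Line 2269 was the lowest of the strong lines and still above the weak ones. Its log2 difference was 0.91 ± 0.24 (SE, adjusted p = 0.027). WDR3, a component of the small subunit processome, had signals of 688 in 1833, 772 in 2274, 566 in 2268 and 483 in 2269, against 348 in 2293, 298 in 2295 and 384 in 2296. The groups did not overlap, and the log2 difference was 0.82 ± 0.21 (SE, adjusted p = 0.0237). Leaving out 1 line kept the WDR43 call in 1 of 7 fits (without 2269, adjusted p = 0.0185) and the WDR3 call in 3 of 7 (without 2296, 2268 or 2269), with adjusted p-values up to 0.0875 and 0.0988.

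Of the other small subunit factors, DDX21, a helicase that also binds ribosomal RNA genes, had signals of 5176 in 1833, 5208 in 2274, 4582 in 2268 and 4017 in 2269, against 3119.8 in 2293, 3598 in 2295 and 3028 in 2296. Its groups did not overlap, but the log2 difference of 0.54 ± 0.20 (SE, adjusted p = 0.104) missed the threshold. UTP20, a processome component, was even among strong lines, from 466 to 477 (4 lines), against 335 to 359 in the 3 weak lines, at a log2 difference of 0.41 ± 0.19 (SE, adjusted p = 0.181). BYSL and RRP12, which act late in small subunit maturation, gave log2 differences of 0.32 and 0.14 with adjusted p = 0.427 and 0.889.

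The nucleolar organisers and small nucleolar ribonucleoprotein proteins had no call in 5, in a fit that called 11.7% of all genes. NCL, the abundant nucleolar protein nucleolin, had signals of 7172 in 1833, 6586 in 2274, 6011 in 2268 and 4208 in 2269, against 4689 in 2293, 4917 in 2295 and 4368 in 2296. Line 2269 lay below every weak line while the other strong lines lay above them, and the log2 difference was 0.34 ± 0.20 (SE, adjusted p = 0.313). FBL, the methyltransferase of box C/D particles, gave 0.13 ± 0.20 (SE, adjusted p = 0.736), with overlapping groups. GAR1 of the H/ACA particles, NOLC1, a chaperone of both classes, and RRP9 of the U3 particle gave log2 differences of 0.09, 0.25 and 0.18.

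None of 9 large subunit factors was called, in a fit that called 11.7% of all genes. In all, 8 of 9 lay above 0, as did 50.9% of all genes. NIP7 had signals of 320.4 in 1833, 289 in 2274, 320.3 in 2268 and 314 in 2269, against 194 in 2293, 135 in 2295 and 211 in 2296, and RRS1, which helps to insert the 5S particle, ranged from 667 to 755 in strong lines, against 329 to 568 in weak lines. The groups did not overlap in either gene, and the log2 differences were 0.76 ± 0.29 (SE, adjusted p = 0.113) and 0.65 ± 0.27 (SE, adjusted p = 0.139). GNL2, a nucleolar GTPase, and MRTO4, which works at the ribosome's stalk, gave 0.66 and 0.52 with overlapping groups. The PES1 and WDR12 subunits of the PeBoW complex gave 0.12 and 0.22. NOP2, a ribosomal RNA methyltransferase, and NOP16 gave 0.13 and 0.17.

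RRP1B had the lowest difference of the 28, -0.41 ± 0.20 (SE, adjusted p = 0.207). Its probe sets disagreed: a second one gave a log2 difference of 1.18 ± 0.45 (SE, adjusted p = 0.110), so no direction is given for this gene. All 6 members with more than 1 probe set past the filter (RRP1B, MAX, NOP16, NOLC1, RRP12 and POLR1C) had another one that differed in sign from the one used in at least 1 comparison, with no difference in any call.

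RNA polymerase I subunits and the metabolic targets, with 2 measured genes each, had no call. POLR1C, shared by polymerases I and III, had signals of 1323 in 1833, 994 in 2274, 1344 in 2268 and 840.0 in 2269, against 708 in 2293, 713 in 2295 and 642 in 2296. The groups did not overlap, and the log2 difference was 0.67 ± 0.23 (SE, adjusted p = 0.0807). A second POLR1C probe set gave 0.09 ± 0.29 (SE, adjusted p = 0.882). POLR1B, the second largest subunit, gave -0.11 ± 0.18 (SE, adjusted p = 0.742) with overlapping groups. ODC1, the rate-limiting enzyme of polyamine synthesis, had signals of 9272 in 1833, 7731 in 2274, 9857 in 2268 and 7511 in 2269, against 4185 in 2293, 4229 in 2295 and 4231 in 2296. Its log2 difference of 1.02 ± 0.36 (SE, adjusted p = 0.0878) was larger than MYC's, with a larger error. CAD, which starts pyrimidine synthesis, had signals of 819.9 in 1833, 658 in 2274, 746 in 2268 and 655 in 2269, against 539 in 2293, 540.5 in 2295 and 491 in 2296, also without overlap, and a log2 difference of 0.44 ± 0.33 (SE, adjusted p = 0.432). The common error of these genes rests on all 14 metastatic lines, and ODC1 and CAD spread most in the weak lung group.

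In the strong against weak lung lines no member was called in either direction, while the fit called 8.86% of all genes, 3.36% higher and 5.5% lower. The median log2 difference over the members was 0.06, with 16 of 28 above 0. The all-gene median was -0.01, with 48.9% above 0. The members' median turned with the lines used: it was -0.15 without SCP26, with 7 of 28 above 0, -0.03 without 4142 and 0.16 without SCP21. At an unadjusted p under 0.05 in the limma fit stood 5 of 28 members, against 2208 of all 9546 genes, so the members did not stand out. The 5 were WDR12 and MYC below 0, and POLR1B, GAR1 and NOP2 above 0. Groups without overlap were found for 1 member higher, POLR1B, and for 0 lower, against 8.39% and 11.4% of all genes. Of the 6 endothelial and stromal markers tested, PECAM1 (1.12) and COL1A1 rose, and the summed signal of the 10 was 1078 to 1359 in strong lines against 743 to 835 in weak lines. Its part in the lung values was not tested. Of the 5 tested markers listed as low or absent in MDA-MB-231, GATA3 (-0.90) and ERBB2 (-0.76) fell.

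MYC had signals of 1549 in 4142, 1253 in 4173, 1244 in 4175 and 1325 in 4180 among strong lung lines, against 1938 in SCP21, 2640.3 in SCP6 and 1378 in SCP26. The weak line SCP26 lay inside the strong range and the other weak lines above it, and the log2 difference was -0.52 ± 0.20 (SE, adjusted p = 0.13). MAX and MXD1 gave -0.30 ± 0.18 (SE, adjusted p = 0.356) and -0.07 ± 0.26 (SE, adjusted p = 0.914), with MXD1 at or below the 40th percentile on every lung array. DDX10 had signals of 1179.5 in 4142, 739.7 in 4173, 720.2 in 4175 and 943 in 4180, against 1485 in SCP21, 1328 in SCP6 and 915 in SCP26, which overlapped, at a log2 difference of -0.47 ± 0.23 (SE, adjusted p = 0.248). For POLR1B they were 207 in 4142, 233 in 4173, 211 in 4175 and 220.1 in 4180, against 194 in SCP21, 117 in SCP6 and 185 in SCP26, without overlap, at a log2 difference of 0.40 ± 0.18 (SE, adjusted p = 0.193).

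CAD and ODC1 spread widely among weak lung lines. CAD had signals of 684 in 4142, 438 in 4173, 605 in 4175 and 488 in 4180, against 1010.4 in SCP21, 1014 in SCP6 and 305 in SCP26. The strong lines lay between SCP26 and the other weak lines, and the log2 difference was -0.31 ± 0.33 (SE, adjusted p = 0.617). ODC1 had signals of 5509 in 4142, 3821 in 4173, 4224 in 4175 and 3919 in 4180, against 6734 in SCP21, 3004 in SCP6 and 1412 in SCP26, with SCP26 lowest and SCP21 highest of the 7 lines, and gave 0.50 ± 0.36 (SE, adjusted p = 0.454). WDR12 gave -0.53 ± 0.21 (SE, adjusted p = 0.14), GNL2 0.62 ± 0.29 (SE, adjusted p = 0.227), NCL 0.06 ± 0.20 (SE, adjusted p = 0.905) and FBL 0.12 ± 0.20 (SE, adjusted p = 0.778).

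SCP26 stood apart in these genes. It was the lowest of the 3 weak lung lines in 23 of 28 members (43.4% of all genes) and the lowest of all 19 arrays in 12 of 28 (11.7% of all genes). Set against the mean of SCP21 and SCP6, the median log2 difference of SCP26 was -0.66 over the members, with 24 of 28 below 0. It was -0.15 over all genes, with 5770 of 9546 below 0. The array of SCP26 had the highest median signal before scaling (163), and its 3′ to 5′ signal ratio for ACTB, a measure of RNA integrity, was 1.24, second to 1.32 in SCP21. Scaling by trimmed mean, which weights that median less, put the members' median level in SCP26 at -0.42 in place of -0.60. The part of RNA integrity was not tested. Without SCP26, 3 members passed the threshold as lower in strong lung lines: MYC at -0.75 (adjusted p = 0.0181), WDR12 at -0.77 (0.0211) and CAD at -0.87 (0.0134). Without SCP21, NOP2 at 0.75 (0.0407) and ODC1 at 1.06 (0.0284) passed as higher, and without 4180 GNL2 did at 0.89 (0.0476). Of all 9546 genes, 689 were called lower without SCP26, 285 higher without SCP21 and 279 higher without 4180. The parts of SCP26 and SCP21 in the lung result were measured only by these fits.

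**Figure D2:**
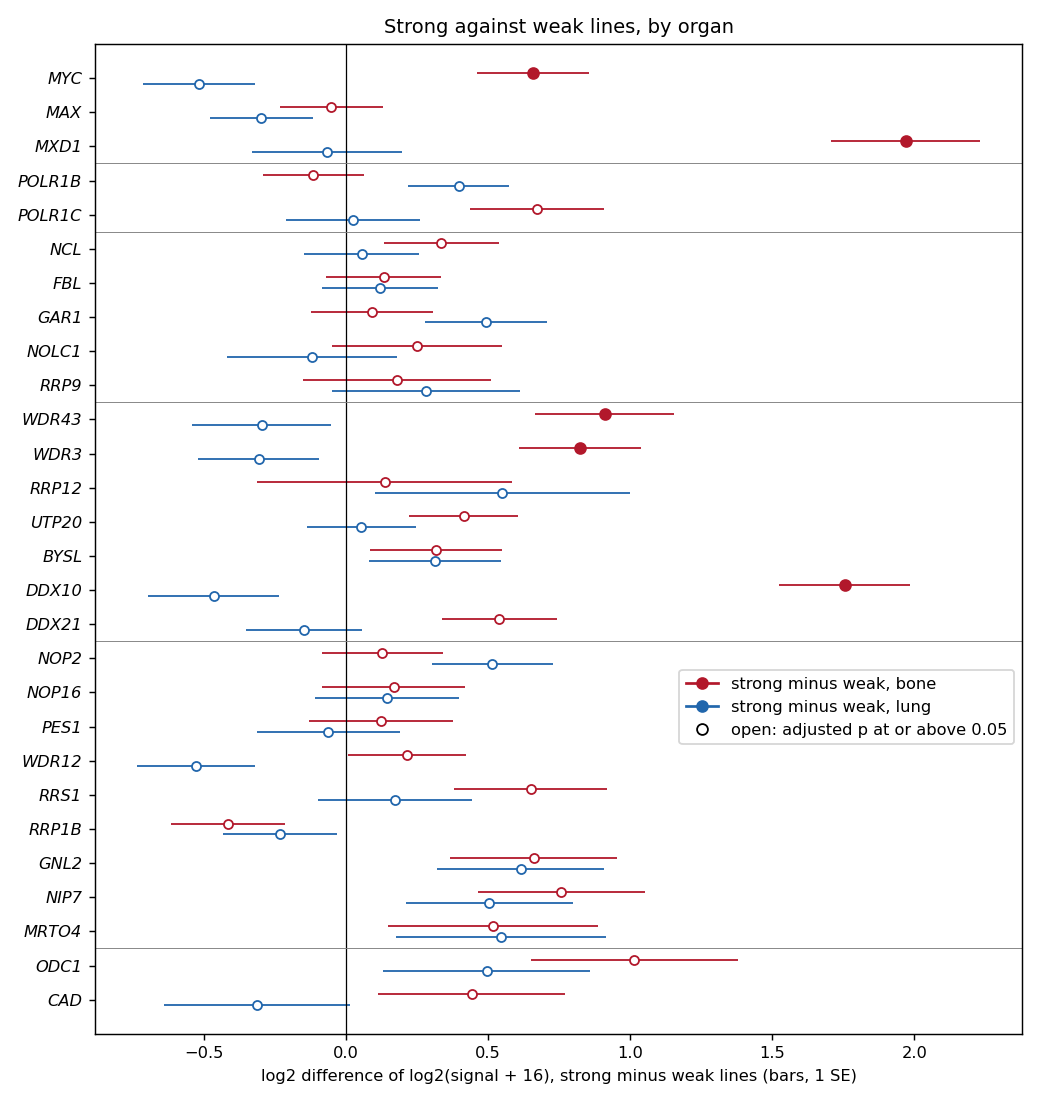
Log2 difference of strong minus weak lines for the 28 members, grouped by role, for bone (red) and lung (blue) lines, with bars of 1 SE and filled points for adjusted p under 0.05. The 5 filled points are bone differences, 0.66 for MYC being the lowest and MXD1, dim in weak bone lines, the highest, and no lung difference is filled.

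The difference between the organs was tested directly, as the bone difference minus the lung difference. In all, 5 of 28 members were called, each with the larger difference in bone. The fit called 11.8% of all genes, 6.96% in that direction and 4.81% in the other. The 5 were DDX10 at 2.22 ± 0.33 (SE, adjusted p = 0.000728), MXD1 at 2.04 ± 0.37 (SE, adjusted p = 0.00325), WDR43 at 1.21 ± 0.34 (SE, adjusted p = 0.0357), MYC at 1.17 ± 0.28 (SE, adjusted p = 0.0154) and WDR3 at 1.13 ± 0.30 (SE, adjusted p = 0.0275). MXD1's value rests on weak bone and lung arrays where it was at or below the 40th percentile, and it ranged from 1.04 to 3.36 over the other settings. MXD1 passed the filter only through arrays where it was high, so its call here is not independent of that filter either. MYC and DDX10 were called in all 14 fits that left out 1 line, WDR3 in 7 and WDR43 in 3, with adjusted p-values up to 0.0741 and 0.0816. MXD1 was also called in all 14, but these kept the same filter. Those fits called 3 to 7 members, with 7 when SCP26 was left out, where 935 of all 9546 genes were called in the same direction. This contrast and the bone contrast share the 7 bone lines. ODC1, CAD, NCL, FBL, MAX and POLR1B gave differences of 0.52, 0.76, 0.28, 0.01, 0.25 and -0.51, with adjusted p-values from 0.211 (POLR1B) to 0.987 (FBL).

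Between hyper-ploid and modal-ploid sublines no member was called in the fit with line of origin as a block. The fit called 1 gene in all, lower in hyper-ploid sublines (0.0105% of the genes tested), and 503 genes had an unadjusted p under 0.05. The pooled median over the members was -0.03, but the pairs differed. In the 1833 pair the members' median was 0.22, with 24 of 28 higher in the hyper-ploid subline (57.5% of all genes), and in the 4175 pair it was -0.31, with 23 of 28 lower (55.8% of all genes). Both held together in 20 members, against 33.2% of all genes. The all-gene medians were 0.06 and -0.06. Each pair is 1 array against 1, so these differences carry no test, and no member passed 2-fold on the log2(signal + 16) scale in either. These counts depended on the scaling, for the members and for all genes. Under trimmed-mean scaling 22 members were higher in the 1833 pair and 19 lower in the 4175 pair, with 15 doing both, at medians of 0.12 and -0.16 against all-gene medians of -0.04 and 0.09. Under quantile normalisation the counts were 21, 19 and 16. The same counts over all 9546 genes were 5486, 5325 and 3173 under array-median scaling. They were 4305, 3906 and 1808 under trimmed-mean scaling, and 4785, 4427 and 2212 under quantile normalisation.

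MYC was in the small group that went the same way in both pairs. Its signals were 1629 (hyper-ploid) and 1966 (modal-ploid) in the 1833 pair and 1187 (hyper-ploid) and 1494 (modal-ploid) in the 4175 pair. WDR43 and UTP20 were also lower in both hyper-ploid sublines, while RRP9, RRS1, FBL and WDR12 were higher in both. The widest split was NIP7's, with 459 (hyper-ploid) and 342 (modal-ploid) in the 1833 pair and 115 (hyper-ploid) and 238 (modal-ploid) in the 4175 pair. RRP12 and GAR1 gave log2 differences of 0.60 and 0.48 in the 1833 pair and -0.63 and -0.77 in the 4175 pair. ODC1 gave 0.22 and -0.76, CAD 0.10 and -0.44, POLR1B 0.52 and -0.06, NCL 0.17 and -0.14, MAX 0.21 and -0.36, and the dim MXD1 0.21 and -0.30.

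**Figure D3:**
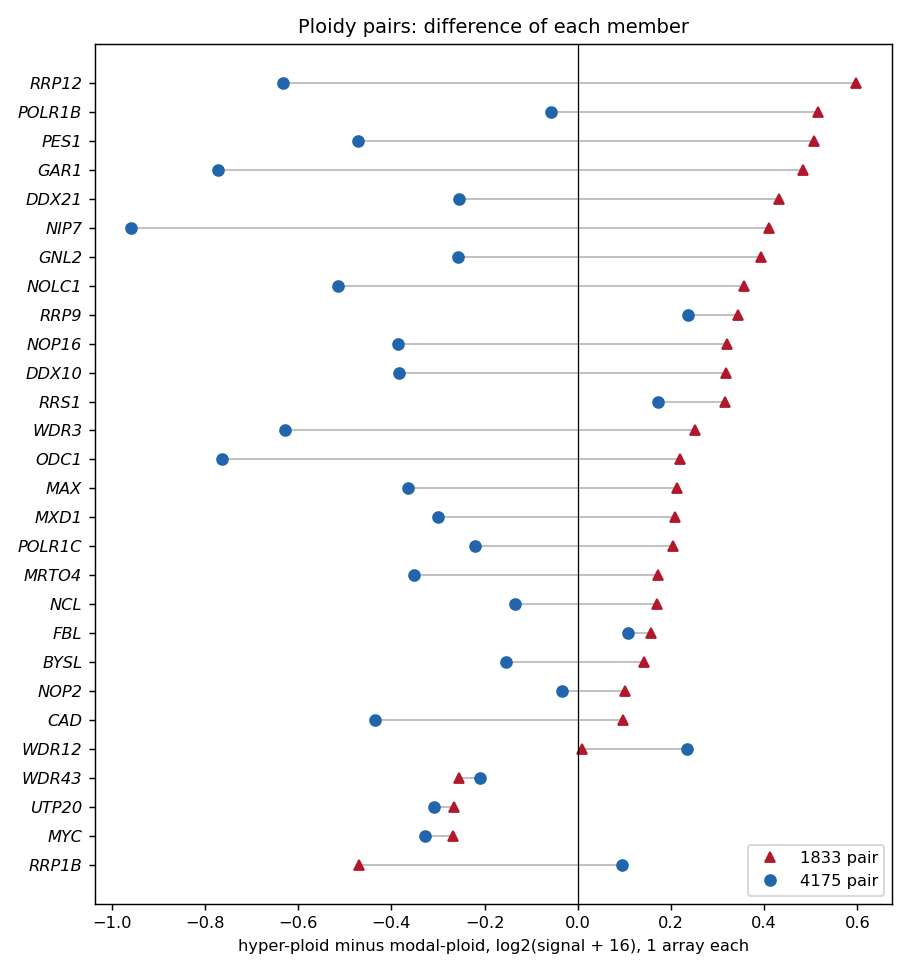
Log2 difference of the hyper-ploid minus the modal-ploid subline for each of 28 members, in the 1833 pair (triangles) and the 4175 pair (circles), 1 array per subline. In 20 members the triangle lies above 0 and the circle below it, which held for 33.2% of all genes. MYC, WDR43 and UTP20 lie below 0 in both.

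Members varied about as much as other genes. The median SD over the 19 arrays was 0.42 (log2) for the members and 0.43 for all genes tested. The widest were MXD1 (0.93), DDX10 (0.84), RRP12 (0.76) and ODC1 (0.73), and the narrowest MAX (0.21) and NCL (0.23). As a summary of an array, the median over members of the level minus the gene's own 19-array mean was 0.33, 0.20, 0.23 and 0.00 in strong bone lines 1833, 2274, 2268 and 2269, against -0.14, -0.15 and -0.27 in weak bone lines 2293, 2295 and 2296. Among strong lung lines it was 0.27 in 4142 and -0.25 to -0.13 in the other 3, against 0.14, 0.12 and -0.60 in SCP21, SCP6 and SCP26. The 1833 pair had 0.48 (hyper-ploid) and 0.24 (modal-ploid), and the 4175 pair -0.33 (hyper-ploid) and -0.09 (modal-ploid). In the parental line it was within 0.01 of 0. Under trimmed-mean scaling these values ranged from 0.08 to 0.27 in strong bone lines, against -0.17 to -0.12 in weak ones, and from -0.11 to 0.33 in strong lung lines, against -0.42 to 0.20 in weak ones. Line 2269, whose median signal was also high (162), stood at 0.19. The 1833 pair then had 0.32 (hyper-ploid) and 0.17 (modal-ploid), and the 4175 pair -0.30 (hyper-ploid) and -0.22 (modal-ploid).

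**Figure D4:**
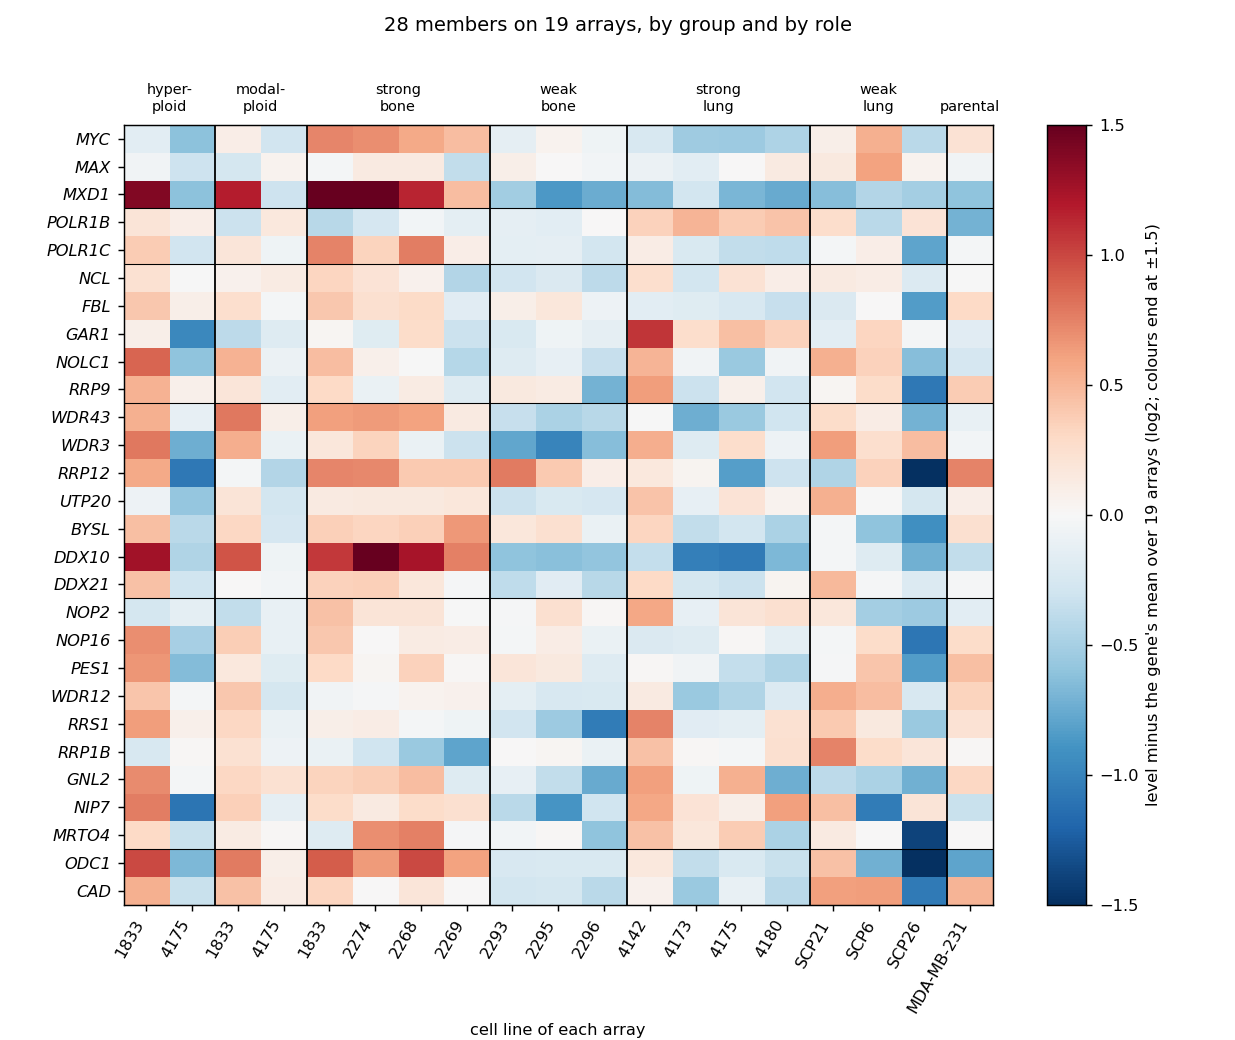
Level of each of the 28 members (rows, by role) on each of the 19 arrays (columns, by group), as log2 distance from the gene's mean over the arrays, with colours ending at 1.5 in either direction. MXD1 and DDX10 are among the genes that are red in the 4 strong bone lines and both 1833 ploidy sublines. The SCP26 column is blue in most rows.

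Against the parental line, the members did not separate as a block. The parental level was nearer the strong bone mean for 15 members and nearer the weak bone mean for 13. MYC, MXD1, DDX10, WDR43 and ODC1 were among the 13. The parental line is a single array, so this carries no test.

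ODC1, CAD, WDR43 and MXD1 lie on chromosome 2 between its first gene in RefSeq order and MXD1. This stretch was examined after the values were seen. The 174 tested genes there that are not members had a median log2 difference of 0.44 in strong against weak bone lines. Of these, 139 lay above 0 (79.9%) and 35 were called higher (20.1%), against 50.9% and 6.85% of all genes. The 421 tested genes after MXD1 on the same chromosome had a median of 0.10, with 7.60% called higher. Such a shift was not particular to this stretch. In the same contrast chromosome 18, which holds no measured member, had a median of 0.54 with 32.9% called higher. Chromosome 21 had 0.27 with 22.0%. In strong against weak lung lines the stretch had a median of -0.28, and for the difference between the organs 0.75. Chromosome 18 had -0.35 and 0.86.

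Line by line, the median level of the stretch was 0.22, 0.26, 0.26 and 0.08 in strong bone lines 1833, 2274, 2268 and 2269, against -0.24, -0.21 and -0.29 in weak bone lines 2293, 2295 and 2296. WDR43's 10 nearest tested neighbours all lay above 0, with 3 called, LBH, BABAM2 and CLIP4. MXD1's had 9 of 10 above 0, with GMCL1 called. For DDX10, on chromosome 11, 5 of 10 neighbours lay above 0 in the bone lines, their median was 0.07, and PPP2R1B, at 0.73, was the 1 called, while for the difference between the organs 9 of 10 lay above 0 with a median of 0.53. In the bone lines WDR3's neighbours on chromosome 1 had 8 of 10 above 0, a median of 0.32 and 2 calls, and MYC's had 6 of 10, a median of 0.11 and 2 calls. Of all genes, 11.7% were called there and 50.9% lay above 0. For the difference between the organs, WDR43's and MXD1's neighbours each had 9 of 10 above 0, with medians of 0.96 and 0.66 and 4 and 2 calls. MYC's and WDR3's each had 6 of 10, with medians of 0.25 and 0.14 and 2 and 0 calls. In that contrast 11.8% of all genes were called and 51.9% lay above 0. The part of the neighbours' shift in the members' results was not tested.

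**Figure D5:**
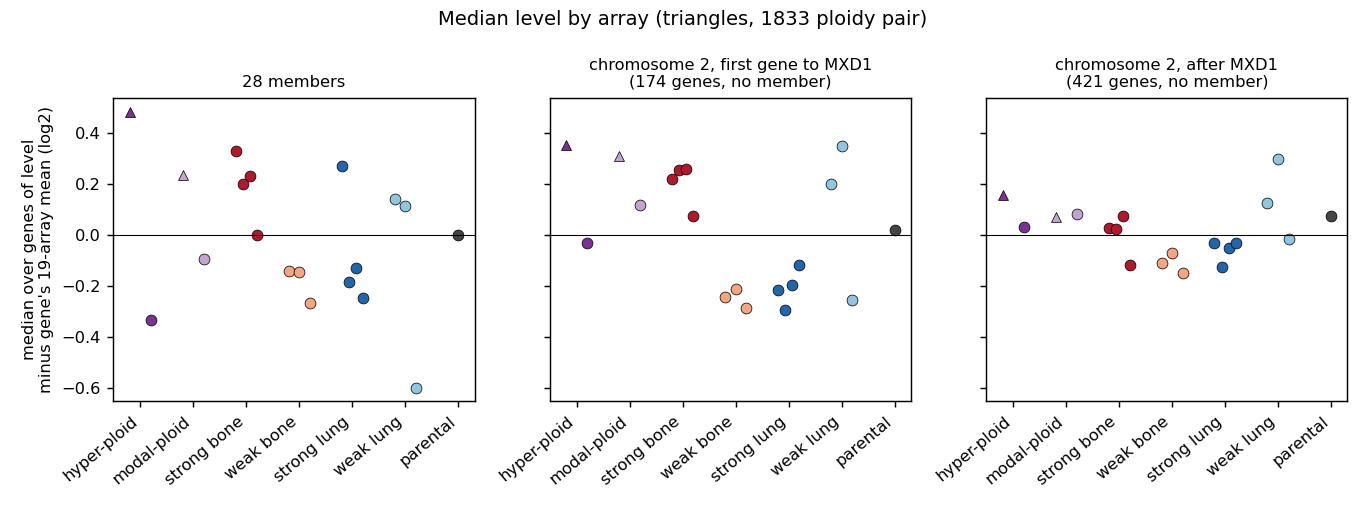
Median over genes of the level minus the gene's 19-array mean, per array, for the 28 members (left), 174 other genes of chromosome 2 up to MXD1 (middle) and 421 after it (right). In the middle panel the 4 strong bone lines lie from 0.08 to 0.26 and the 3 weak bone lines from -0.29 to -0.21.

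Related gene lists were counted in the same fits, in which 6.85% of all genes rose and 4.83% fell in strong bone lines. These lists too were chosen with earlier results of these data known. Among other ribosome assembly factors, 9 of 58 rose in strong bone lines and 1 fell, with WDR46 at 1.22, PNO1 at 1.11 and NOC4L at -1.14. Of 22 subunits and initiation factors of RNA polymerases I and III, 5 rose and 0 fell, with POLR3D at 1.11, TAF1B at 1.09 and POLR3C at 1.01. The cytosolic ribosomal proteins, the structural products of the pathway, had 0 calls in 27 and a median of 0.12. Among MYC's partners and antagonists beyond the 28, 0 rose and 2 of 13 fell, the coactivator TRRAP at -1.03 and the MAX-binding repressor MNT at -0.60.

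Other MYC targets in growth and metabolism had 4 of 40 higher and 1 lower in strong bone lines. The amino acid transporter SLC7A5 led at 2.52, followed by PRMT5 at 0.98 and GART at 0.85. Proliferation genes had 1 of 27 higher, CDC20 at 1.04, and a median of -0.01. Of 11 genes of the p53 and ribosome stress response, 2 rose, GDF15 at 3.20 and GADD45A at 1.90. In strong lung lines, where 3.36% of all genes rose and 5.5% fell, 0 of 27 ribosomal proteins, 0 of 22 polymerase genes and 0 of 27 proliferation genes were called. There 1 of 58 assembly factors rose (NOC2L, 0.80), RAN rose (0.63) and PRPS2 fell by 1.60 among 40 MYC targets, XPC fell by 0.96 among 11 stress genes, and 3 of 13 network genes fell (MXI1, TRRAP and MGA, from -1.11 to -1.06). No gene of these lists was called between hyper-ploid and modal-ploid sublines.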

How the data were processed

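Total RNA of 19 lines was hybridised as biotin-labelled cRNA to Affymetrix arrays, per the labels' protocols. The deposited unit is a ratio per probe set and array; image software and the divisor were not given in the sources used here. For each probe set the ratios were tested as whole multiples of a step on each array over a divisor shared within an array set, allowing 0.01 steps plus a small share of the value. This held for 22282 of 22283 probe sets (99.9955%), with no value over 0.0468 steps from a whole number, against 0.314% and 2.21% after shuffling in the 2 sets. The step was taken as 0.1 signal units, an assumption under which the trimmed mean signal was 499 to 500 on 15 arrays.

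Arrays were brought to 1 median signal of 131 and analysed as log2(signal + 16). Probe sets that exceeded the 40th percentile of signals on 2 or more of the 19 arrays were kept (16323), and each gene was represented by the probe set, annotated to it alone, with the highest mean. Gene names come from the platform annotation: 19071 probe sets had 1 symbol, 1043 several and 2169 none. limma 3.58.1 (R 4.3.3; lmFit, eBayes) was fitted to the 14 metastatic lines with a mean per group, giving the bone, lung and organ-difference contrasts, and to the 4 ploidy arrays with line of origin as a block, with Benjamini-Hochberg adjustment over 9546 genes and a threshold of 0.05. The ploidy fit has 1 residual degree of freedom before moderation. The design had planned for recovered signals, and the deposited ratios were used as an alternative. The fitting was tested on simulated data.

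Members and lists were chosen with earlier results of these data known. All 28 measured members could be named; per comparison those called, the largest differences and a set list of central genes were, and of the other lists at most 3 called genes each. Alternatives were 2 other scalings, other offsets and filters, means over probe sets, ratios as deposited, subsets of lines and leaving out each line. Arrays give no read depth, and their number limits the precision.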

Additional observations from a re-analysis of the deposited data

Results flagged for a closer look

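In groups of 4 lines, 1 line lay far from the others in 2 of 56 groups examined, where chance gives about 1 in 20. WDR43 in strong bone lines had line 2269 lowest, with a gap of 0.930 of the group's range (8.58 against a mean of 9.07 in the other lines, log2). BYSL in strong bone lines had 2269 highest, with a gap of 0.870 (11.06 against 10.76).

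The strong against weak difference was larger in bone than in lung lines, by the test of the difference itself, for DDX10 (2.22), MXD1 (2.04), WDR43 (1.21), MYC (1.17) and WDR3 (1.13). MXD1 passed the filter on low signal only through arrays where it was high, so its call is not independent of that filter. In the ploidy pairs, 20 members were higher in the hyper-ploid subline of 1833 and lower in that of 4175. That held for 33.2% of all genes. The members' count was 15 under trimmed-mean scaling and 16 under quantile normalisation, against 1808 and 2212 of all 9546 genes. Each pair is 1 array against 1, and this difference between pairs was not tested.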

How the results depend on the processing

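The count of 5 members called in bone ranged from 4 to 7 over 9 other settings and from 2 to 6 when 1 line was left out. The count of 0 in lung became 1 under quantile normalisation (GAR1, 0.61, adjusted p = 0.0373) and ranged from 0 to 3 with 1 line left out. The organ difference called 4 to 5 members in 8 other settings and 3 to 7 with 1 line left out. MYC's bone call was lost with no filter (adjusted p = 0.0599), and WDR3's organ difference under quantile normalisation (0.0521). ODC1 passed in bone with the bone lines alone and with log2(signal + 64), NIP7 with the bone lines alone, and POLR1C under both other scalings, while the mean of its probe sets gave 0.38 (0.375). Over all genes, the bone fit called 1115 genes (654 higher, 461 lower), against 1460 (726 and 734) under quantile normalisation and 1513 (716 and 797) under trimmed-mean scaling. It called 550 to 1253 with 1 line left out. The lung fit called 846 genes (321 higher, 525 lower), against 1176 (575 and 601) and 1100 (524 and 576) under those scalings and 441 with the lung lines alone. The organ difference called 1123 genes (664 higher, 459 lower), against 1444 (703 and 741) and 1374 (671 and 703). Trimmed-mean scaling moved the all-gene median of the organ difference to -0.10. The 1 gene called between ploidy groups was lost under most settings.

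Signs changed in genes that were not called. Averaging probe sets gave MAX 0.10 and RRP1B 0.38 in bone, RRP1B 0.70 in the organ difference and MAX 0.12 between ploidy groups. FBL's organ difference was -0.13 under trimmed-mean scaling and -0.078 under quantile normalisation, and MXD1's ploidy difference 0.013 with log2(signal + 64). Leaving out 1 line gave ranges across 0 for MAX (-0.11 to 0.062) and GAR1 (-0.016 to 0.18) in bone. In lung they were -0.053 to 0.17 for NCL, -0.12 to 0.30 for FBL, -0.18 to 1.11 for RRP12 and -0.058 to 1.06 for ODC1. In the organ difference they were -0.16 to 0.26 for FBL, -0.98 to 0.32 for RRP12 and -0.047 to 1.07 for ODC1. The ploidy pairs taken alone ranged from -0.36 to 0.21 for MAX, -0.30 to 0.21 for MXD1, -0.14 to 0.17 for NCL, -0.96 to 0.41 for NIP7, -0.057 to 0.52 for POLR1B, -0.76 to 0.22 for ODC1 and -0.44 to 0.097 for CAD. The cause was not tested.

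Without the replicate block (line of origin) the ploidy fit also called 0 members, as it did in the 9 other settings tried. No paired analysis was made for strong against weak lines because they are different lines and the labels pair none of them. Dim genes such as MXD1 are limited by the arrays' low signals, and 10 listed genes were not measured.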
